A study of Mus musculus with 11 samples.

Results

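The genes described here are 39 regulators of pre-mRNA splicing: 12 SR proteins, 6 kinases that phosphorylate them, 11 heterogeneous nuclear ribonucleoproteins (hnRNPs) and 10 other RNA-binding regulators. They were chosen by gene symbol, with earlier results of these data known. The genes were found by their identifiers in the count table, where they are 39 of 48709 genes. All 39 passed the filter on low counts. The cells were muscle stem cells (satellite cells) from pectoral, forelimb and hindlimb muscles of C57BL/6 mice carrying Tg:Pax7-nGFP, a transgene in which Pax7 regulatory sequences drive a nuclear green fluorescent protein. In T0 the muscles were fixed whole in 0.5% paraformaldehyde for 1 h at 4 °C before the cells were taken out (3 libraries). In T3 the cells were isolated by fluorescence-activated sorting and then fixed in 0.5% paraformaldehyde for 30 min on ice (4 libraries). T5 cells were fixed like those of T3 after an added 2 h at 37 °C, and the sources disagree on whether the muscles spent that time in medium before the isolation or the cells spent it afterwards. The 4 T5 libraries were added up by their letter into 2 replicates, A and B. Statements on T5 rest on these sums unless single libraries are named. The letter does not mark the most similar libraries: 1 library of A and 1 of B differed less from each other (chi-square per degree of freedom 14.3) than the 2 libraries of A did (83.1), so the spread between A and B may understate that between libraries. The labels give neither the age nor the number of the animals, and no source ties a replicate to its own animal. The p-values therefore reflect only how these samples vary, which may be technical. T0 and T3 also differ in how long and in what state the cells were fixed, which cannot be told apart from the isolation.

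Splicing regulators decide which exons and introns of a transcript are kept. SR proteins carry a domain rich in arginine and serine, bind mostly exonic enhancers and favour exon inclusion, and Clk and Srpk kinases set their activity and their place in the nucleus by phosphorylation. hnRNPs coat nascent transcripts and often repress splice sites. Many of these genes control their own level through alternative exons or retained introns that send the transcript to nonsense-mediated decay. In muscle, the Mbnl, Celf and Rbfox proteins direct the exon choices that accompany muscle differentiation, and Ptbp1 holds back many tissue-specific exons.

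A transcript marked for nonsense-mediated decay was annotated for 28 of the 39 genes, or 71.8%, against 23.2% of the 19415 protein coding genes tested. It was present for 11 of the 12 SR proteins, all 6 kinases, 6 of the 11 hnRNPs and 5 of the 10 other regulators. A retained intron transcript was annotated for 32 of the 39 genes, or 82.1%, against 46.6% of the protein coding genes tested. The sets compared here were not matched for level or for the number of transcripts annotated per gene. The counts give 1 value per gene and hold intronic reads, so productive, retained intron and decay-bound transcripts of a gene cannot be told apart in any value that follows.

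The 250 bases before the transcription start were read for 36 of the 39 genes, in 52 windows, from RefSeq (GRCm38.p6). Rbm3, Clk1 and Rbfox2 were not matched. Shown are the windows of Ptbp1, which had the highest rise after isolation, of Tra2b, which had the highest rise among SR proteins, of Tia1, which had the deepest fall, and of Clk2, the kinase that fell most. Each is printed 5′ to 3′ on the strand of its gene, and capitals mark matches on either strand to the core of the cyclic AMP response element (TGACG), the E-box (CACGTG), the GC box (GGGCGG), the CCAAT box (CCAAT) and the heat shock element (GAANNTTC). The Ptbp1 window is chr10:79854182-79854431 on the plus strand, and an exon of the noncoding gene E130317F20Rik covers it on the other strand. The Tra2b window is chr16:22266006-22266255 on the minus strand. The Tia1 and Clk2 windows, both on the plus strand, are chr6:86403969-86404218 and chr3:89164545-89164794.
Ptbp1: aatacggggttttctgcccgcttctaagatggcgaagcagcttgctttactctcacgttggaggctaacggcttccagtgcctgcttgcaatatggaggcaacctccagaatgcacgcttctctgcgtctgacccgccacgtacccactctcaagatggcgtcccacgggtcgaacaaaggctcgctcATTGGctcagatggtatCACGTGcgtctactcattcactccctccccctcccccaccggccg
Tra2b: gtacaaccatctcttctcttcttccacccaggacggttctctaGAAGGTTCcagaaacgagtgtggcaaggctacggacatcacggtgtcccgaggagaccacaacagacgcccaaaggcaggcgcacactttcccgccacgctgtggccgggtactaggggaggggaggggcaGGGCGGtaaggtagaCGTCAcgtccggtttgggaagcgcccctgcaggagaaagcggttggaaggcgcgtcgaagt
Tia1: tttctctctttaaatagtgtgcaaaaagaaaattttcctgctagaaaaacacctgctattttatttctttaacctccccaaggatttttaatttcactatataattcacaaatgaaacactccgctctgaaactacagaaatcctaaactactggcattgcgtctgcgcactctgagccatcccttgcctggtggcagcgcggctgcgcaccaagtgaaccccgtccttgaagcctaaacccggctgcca
Clk2: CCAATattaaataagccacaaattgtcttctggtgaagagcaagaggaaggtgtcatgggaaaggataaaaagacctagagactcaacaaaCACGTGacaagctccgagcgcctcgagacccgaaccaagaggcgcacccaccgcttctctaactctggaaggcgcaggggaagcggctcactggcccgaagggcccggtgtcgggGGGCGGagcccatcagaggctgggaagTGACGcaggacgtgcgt
The 4 windows held different sets of motifs. The Ptbp1 window held an E-box and a CCAAT box, the Tra2b window a heat shock element, a GC box and a TGACG core, and the Clk2 window a CCAAT box, an E-box, a GC box and a TGACG core. None of the motifs searched was found in the Tia1 window. Over all 52 windows, the TGACG core was found in 48.1%, against 21.1% of the 21809 windows of tested genes and 17.8% of all 32851 windows in the table. GC boxes were found in 71.2% of the members' windows, against 43.5% and 32.7%. CCAAT boxes were found in 44.2%, against 34.4% and 33.8%, the E-box in 11.5%, against 6.86% and 6.02%, and the heat shock element in 9.62%, against 5.8% and 6.69%. The mild-cold response element (TCCCCGCC, which can share bases with a GC box) was found in 5.77% of the members' windows, 1 each of Cirbp, Hnrnpf and Srsf7, which is near the 6.26% and 4.64% of the other sets. The ETS site (CCGGAAG) stood in 19.2% of the members' windows against 9.17% and 6.91%. Windows of the same gene can overlap, as those of Srsf4 do, so a site can be counted more than once. By gene, the ETS site was found in 7 of the 36, the TGACG core in 21 and the GC box in 28. Shares of the other sets were computed by window only, so these counts by gene have no background. The AP-1 site (TGACTCA) was rarer, in 1.92% of the members' windows (1 window) against 4.06% and 4.46%. A match describes these letters in this window and is neither a bound site nor a cause.

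The library totals of the T0 group ranged from 49078859 to 67251946 counts, those of T3 from 52632553 to 72638711, and those of T5 from 61837170 to 102347035. T0 replicate 3 stood apart: it was the lowest T0 replicate for 39 of the 39 splicing regulators, against 49.5% of all genes tested and 83.0% of the 8220 genes within the members' range of mean level. Its value was 0.39 to 0.702 times the mean of the other T0 replicates (median 0.601). Its share of counts at ribosomal RNA loci was 18.3%, against 4.14% and 12.5% in T0 replicates 1 and 2. That share was not particular to it: 1 T5 library of B had 20.3%, and the other T3 and T5 libraries had 6.45% to 13.5%. Since T0 replicate 3 stood apart in the members' levels, counts of members called against T0 are given with and without it. The summed level of 10 satellite cell markers was 4790 to 7054 CPM (counts scaled to the size of the library) at T0, 2388 to 3019 at T3 and 1730 to 1810 at T5. All 10 passed the filter on low counts. The sum is weighted to the most abundant markers, and the 10 did not move together. In T3 against T0, 2 were called higher and 4 lower, with a median log2 fold change of -0.15. Of all genes tested, 15% were called higher and 22.9% lower. For 16 myofibre markers the sum was 149 to 167, 176 to 248 and 155 to 157. Endothelial markers summed to 233 to 281, 369 to 468 and 243 to 247 CPM, and both of these sums were higher in every T3 replicate than in any T0 or T5 replicate. In such bulk samples, fewer cells of a type and less RNA per cell cannot be told apart.

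**Figure D1:**
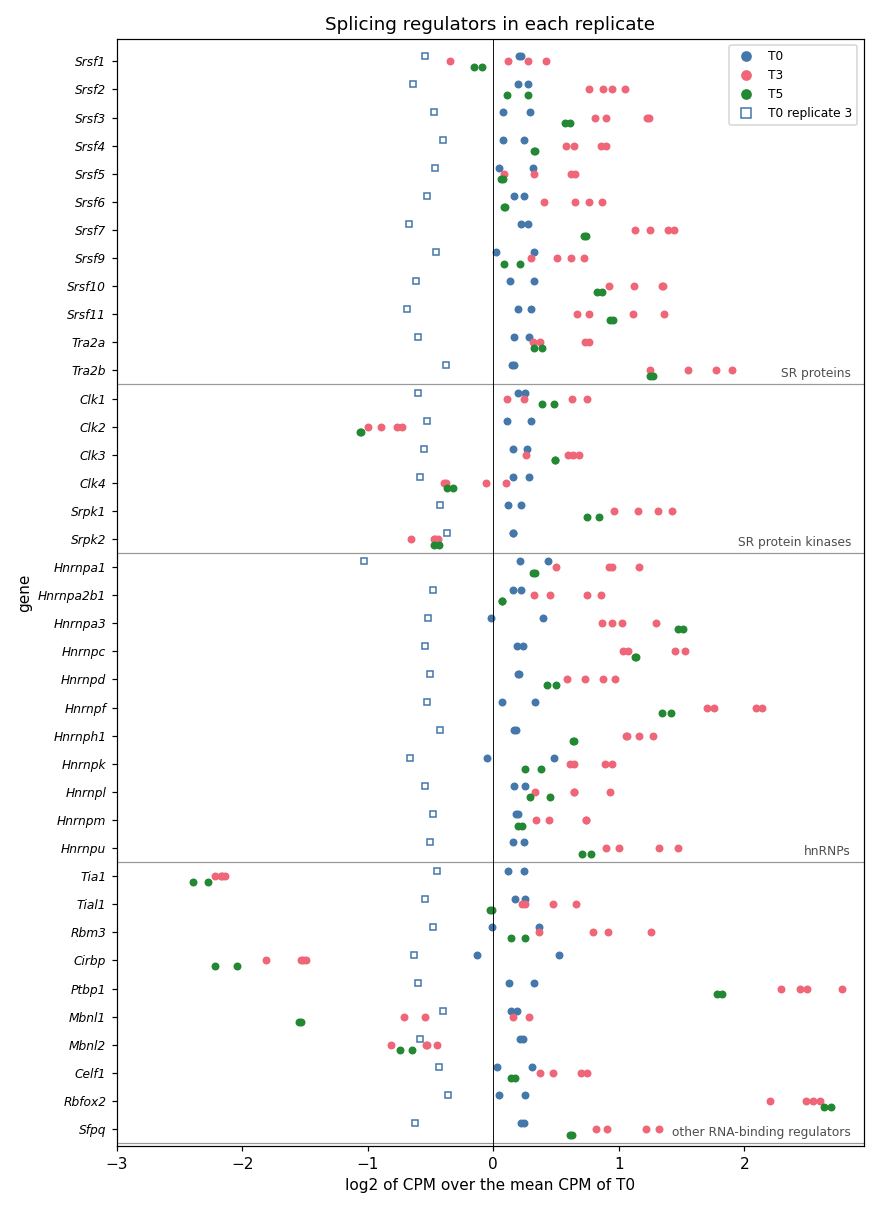
Level of each of the 39 genes in each replicate, as log2 of CPM over the mean CPM of T0, by role. Open squares are T0 replicate 3, which is the lowest T0 replicate in every row; most T3 points lie to the right of T0, and Tia1, Cirbp and Clk2 lie to the left.

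Levels between genes were compared only per length. Per kb of annotated exon, the T0 means were highest for Mbnl2 (100.4 CPM per kb), a repressor and activator of muscle exons, Sfpq (63.4), a paraspeckle protein that acts in splicing and transcription, and Rbfox2 (56.9). The highest members of the other roles were Hnrnpa2b1 (37.8), Srsf5 (35.4) and Clk1 (18.8), and the lowest of all 39 was Srpk1 (3.75). Exons of Mbnl2 and Sfpq overlap those of another gene, which makes their levels uncertain. Because introns contribute counts, the order changed with the length used: per kb of gene span Srsf5 came first (28.2), Mbnl2 was 12th (7.72) and Rbfox2 was 35th (2.03), and 5 of the 10 highest genes were the same.

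Most of the splicing regulators differed between isolated cells and cells fixed in muscle, and chiefly by a higher level in isolated cells. Comparing T3 with T0 asks what sorting living cells out of muscle does to their transcripts. Of 39 genes, 27 were called higher in T3 and 4 lower (edgeR quasi-likelihood test, adjusted p under 0.05 over all genes). Of all 31999 genes tested, 15% were called higher and 22.9% lower, and of the 8220 genes at the members' level, 28.7% and 28.5%. The median log2 fold change of the 39 genes was 0.75, against 0.05 for all genes and 0.04 for the genes at their level. All T3 replicates lay above all T0 replicates for 26 genes and below for 4, where all genes gave 16.2% above and 22% below, and genes at the members' level gave 30.4% above. Without T0 replicate 3 the calls were 23 higher and 5 lower, with a median of 0.54, where all genes gave 22.4% higher and 28.1% lower. All T3 replicates then lay above T0 replicates 1 and 2 for 26 members and below for 6, against 28.9% and 30.8% of all genes. Srsf9, Clk3, Hnrnpa2b1 and Hnrnpm then lost the call, and Mbnl2 gained one.

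**Figure D2:**
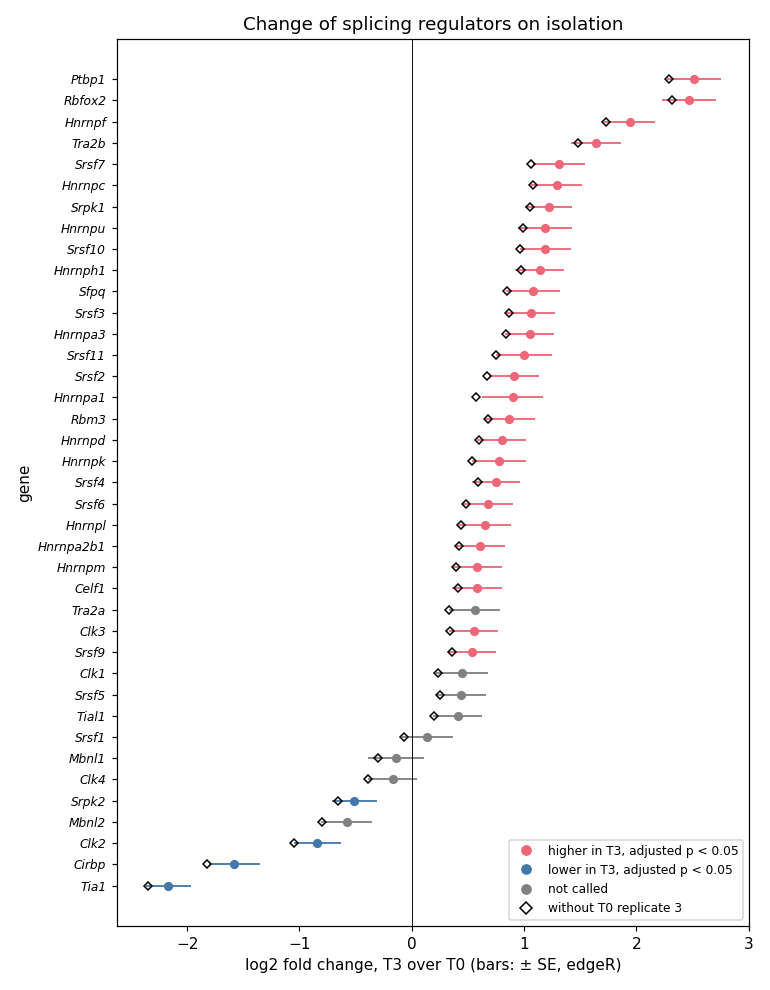
Log2 fold change of T3 over T0 for each gene with its standard error (filled points, coloured by call) and the estimate without T0 replicate 3 (open diamonds). Ptbp1 (2.51) and Rbfox2 (2.47) head the order and Tia1 (-2.17) ends it; leaving out the low T0 replicate shifts the estimates to the left.

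Among the SR proteins all 12 log2 fold changes were above 0, 9 were called, and the median was 0.83 (8 called and 0.63 without T0 replicate 3). Tra2b, a sequence-specific activator of weak exons, rose most. It had 64.3, 64.8 and 44.5 CPM in T0, 169, 198, 137 and 217 in T3, and 140 and 137 in T5 (A and B). Every T3 and T5 value exceeded every T0 value, and the lowest T3 value lay at the level of T5. The fold change of T3 over T0 was 3.12 (log2 1.64, SE 0.22, adjusted p = 2.9e-06). Srsf7, which couples splicing to mRNA export, had 62.2, 59.8 and 32.2 CPM in T0, 122, 135, 112 and 139 in T3 and 85.7 and 84.8 in T5. Its 3 groups did not overlap, with T5 between the others, and T3 exceeded T0 2.47-fold (log2 1.31, SE 0.23, adjusted p = 6.56e-05). Srsf10, a splicing repressor when dephosphorylated, had 63.1, 55.5 and 32.9 CPM in T0, 110, 129, 95.5 and 128 in T3 and 91.8 and 89.7 in T5. Its T3 replicates lay above T0 and above both T5 sums, although 1 T5 library (97.9 CPM) exceeded the lowest T3 value, at a log2 fold change over T0 of 1.19 (SE 0.23, adjusted p = 0.000174).

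Srsf3, the smallest classical SR protein, had 56.9, 48.9 and 33.5 CPM in T0, 81.5, 110, 86.5 and 108 in T3 and 70.9 and 69.0 in T5. The groups again did not overlap, and T3 exceeded T0 2.08-fold (log2 1.06, SE 0.22, adjusted p = 0.000382). Srsf11 had 168, 180 and 90.6 CPM in T0, 247, 374, 232 and 315 in T3 and 278 and 283 in T5. T5 stayed within the T3 range, and the log2 fold change of T3 over T0 was 1.00 (SE 0.25, adjusted p = 0.00219). The other called SR genes had log2 fold changes of 0.91 (Srsf2), 0.75 (Srsf4), 0.68 (Srsf6) and 0.54 (Srsf9). For Srsf9 the adjusted p was 0.0472, a call that 12 of 16 alternative settings did not give. Of the 50-base stretches of Srsf4 transcripts, 39.5% also occur in Gm12992 on the other strand, so the level of Srsf4 is uncertain. Gm12992 had 29.3, 50.6 and 39.3 CPM on average in T0, T3 and T5. Srsf5, the SR gene with the highest level per kb of exon in T0, had 176, 145 and 102 CPM in T0, 176, 222, 150 and 217 in T3 and 147 and 149 in T5. Its T0 and T3 ranges overlapped and it was not called (log2 0.44, adjusted p = 0.134), nor were Tra2a (0.56, adjusted p = 0.0591) and Srsf1 (0.14, adjusted p = 0.677), the founding member of the family, whose estimate was -0.07 without T0 replicate 3.

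The kinases did not move as a group: 2 were called higher, 2 lower, and their median was 0.14 (1 higher, 2 lower and -0.08 without T0 replicate 3). Srpk1, which phosphorylates SR proteins in the cytoplasm and licenses their nuclear import, had 50.4, 54.1 and 34.6 CPM in T0, 90.2, 124, 103 and 115 in T3 and 78.0 and 83.1 in T5. Every T3 and T5 replicate exceeded every T0 replicate, and T3 over T0 was 2.33-fold (log2 1.22, SE 0.21, adjusted p = 6.25e-05). Clk2, a nuclear kinase of SR proteins, went the other way. It had 75.6, 66.1 and 42.6 CPM in T0, 30.8, 37.1, 33.1 and 36.1 in T3 and 29.4 and 29.5 in T5. Even the low T0 replicate lay above every isolated sample, and T3 was 1.79-fold lower than T0 (log2 -0.84, SE 0.21, adjusted p = 0.00202). T5 was 2.08-fold lower than T0 (log2 -1.06, SE 0.26, adjusted p = 0.00212). Clk1 is the family member whose own intron retention is best known. It had 175, 182 and 101 CPM in T0, 164, 257, 181 and 236 in T3 and 214 and 200 in T5. Its groups overlapped and it was not called (log2 0.45, adjusted p = 0.142). Clk4 was not called (log2 -0.17, adjusted p = 0.609), and its sign turned under upper quartile scaling. Clk3 (log2 0.55, adjusted p = 0.0471) and Srpk2 (log2 -0.51, adjusted p = 0.0448) passed narrowly, and 11 and 14 of 16 alternative settings did not call them. The exons of both overlap a gene on the other strand, Edc3 for Clk3 and Kmt2e for Srpk2. Kmt2e had mean levels of 338, 245 and 188 CPM in T0, T3 and T5, above those of Srpk2 (102, 71.6 and 74.3).

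All 11 hnRNP genes were called higher in T3, and in each the 4 T3 values lay above the 3 T0 values. Without T0 replicate 3, 9 of the 11 were called. Their median log2 fold change was 0.90, the lowest being Hnrnpm (0.58) and the highest Hnrnpf (1.94). Hnrnpf, which binds G tracts, had 55.9, 46.6 and 30.7 CPM in T0, 150, 189, 145 and 196 in T3 and 113 and 119 in T5. The groups were wide apart, with T3 3.83-fold above T0 (SE of log2 0.23, adjusted p = 5.16e-07). Of the 50-base stretches of its transcripts, 61.9% also occur in other annotated genes, so its level is uncertain. Its close relative Hnrnph1 shares 1.77% of its stretches and had 232, 230 and 153 CPM in T0, 430, 459, 427 and 493 in T3 and 320 and 317 in T5. T3 again lay above T5 and T5 above T0, with a log2 fold change of T3 over T0 of 1.14 (SE 0.22, adjusted p = 0.000146).

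Hnrnpc, which binds uridine tracts and keeps cryptic exons out, had 110, 114 and 66.5 CPM in T0, 198, 279, 204 and 264 in T3 and 213 and 212 in T5. The T5 sums fell inside the T3 range, and T3 over T0 was 2.44-fold (log2 1.29, SE 0.23, adjusted p = 8.56e-05). Hnrnpu, a nuclear scaffold protein and the hnRNP with the most counts, had 404, 429 and 256 CPM in T0, 726, 1010, 678 and 906 in T3 and 591 and 625 in T5. No T0 value reached any value of isolated cells, and the log2 fold change of T3 over T0 was 1.19 (SE 0.24, adjusted p = 0.000263). Hnrnpa3 was the 1 hnRNP whose T5 values lay above T3: 31.8, 23.9 and 16.9 CPM in T0, 46.6, 49.2, 44.2 and 59.5 in T3 and 69.1 and 67.2 in T5. Its log2 fold change was 1.05 for T3 over T0 (SE 0.22, adjusted p = 0.0005) and 1.50 for T5 over T0 (SE 0.25, adjusted p = 5.99e-05), while T5 over T3 was not called (0.45, adjusted p = 0.442). Of the 50-base stretches of Hnrnpa3 transcripts, 27.1% also occur in other annotated genes. Its exons also overlap Gm24574 on the same strand, so its level is uncertain too. Hnrnpa2b1, the hnRNP with the highest level per kb of exon in T0, had 291, 278 and 178 CPM in T0, 341, 450, 311 and 417 in T3 and 261 and 260 in T5. The T5 sums stood inside the T0 range. Its call in T3 over T0 (log2 0.61, SE 0.22, adjusted p = 0.0346) was lost under 8 of 16 alternative settings. The other called hnRNPs were Hnrnpa1 (log2 0.90), Hnrnpd (0.80), Hnrnpk (0.78), Hnrnpl (0.65) and Hnrnpm, whose call was lost under 10 of 16. Hnrnpa1 shares 28.2% of its 50-base stretches with other annotated genes, so its level is uncertain as well.

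Among the other RNA-binding regulators 5 were called higher and 2 lower (5 and 3 without T0 replicate 3), and this group held the 2 highest and 2 lowest estimates of all 39. Ptbp1, the polypyrimidine tract binding repressor, had 44.2, 38.6 and 23.3 CPM in T0, 173, 243, 192 and 200 in T3 and 122 and 125 in T5. The 3 groups did not overlap. T3 over T0 was 5.71-fold (log2 2.51, SE 0.24, adjusted p = 2.85e-08; 2.29 without T0 replicate 3), and T5 over T0 was 3.49-fold (log2 1.80, SE 0.26, adjusted p = 1.07e-05). Ptbp1 shares exonic bases with 3 genes on the other strand, and one of these, Plppr3, showed 19.5, 120 and 71.3 CPM on average in T0, T3 and T5, a course like that of Ptbp1. The share of Ptbp1 stretches found in other genes was 18.3%, so reads may have been counted for both.

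Rbfox2, which binds intronic UGCAUG elements next to muscle exons, had 550, 478 and 361 CPM in T0, 2700, 2604, 2139 and 2807 in T3 and 2993 and 2870 in T5. Its CPM in isolated cells was the highest of the 39 genes. CPM do not account for gene length, and per kb of gene span Rbfox2 was 35th in T0. Both T5 sums lay above all T3 replicates, but the single T5 libraries had 3735, 2272, 2751 and 3042 CPM, and 2 of these fall within the T3 range. T3 over T0 was 5.54-fold (log2 2.47, SE 0.24, adjusted p = 3.75e-08) and T5 over T0 6.33-fold (log2 2.66, SE 0.27, adjusted p = 1.27e-07). T5 over T3 was not called (log2 0.19, adjusted p = 0.753). The gene spans 228015 bases (GRCm38 chr15:77078990-77307004, minus strand) with 8140 exonic bases. No exon of another gene overlaps its exons, and none of its stretches occurs in another gene. The noncoding gene 1700109K24Rik, inside it on the other strand, went from 40.7 CPM in T0 to 132 in T3 and 130 in T5. Sfpq had 356, 350 and 195 CPM in T0, 562, 750, 530 and 699 in T3 and 464 and 458 in T5. Its groups did not overlap either, and T3 over T0 was 2.11-fold (log2 1.08, SE 0.24, adjusted p = 0.000816). Gm12940 overlaps Sfpq exons on the same strand and had 129, 175 and 142 CPM on average in T0, T3 and T5. Which of the genes these reads belong to cannot be told, so the level of Sfpq is uncertain.

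Tia1, a stress granule protein that helps recognise weak 5′ splice sites, fell most. It had 78.7, 72.3 and 48.7 CPM in T0, 14.8, 14.9, 14.3 and 15.1 in T3 and 13.8 and 12.7 in T5. Isolated samples lay within 12.7 to 15.1 CPM, and the low T0 replicate was still far above them. T3 was 4.51-fold lower than T0 (log2 -2.17, SE 0.20, adjusted p = 1.64e-08) and T5 5.03-fold lower (log2 -2.33, SE 0.26, adjusted p = 4.91e-07). Gm44790, which overlaps Tia1 on the same strand, fell from 34 CPM in T0 to 8.58 in T3 and 8.93 in T5 on average, and which of the genes its reads belong to cannot be told. The paralog Tial1, with no overlapping gene, was not called (log2 0.41, adjusted p = 0.15).

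Cirbp and Rbm3 are the paired cold-inducible RNA-binding proteins, and both are known to be more abundant at lower temperature. Cirbp had 39.6, 25.2 and 17.8 CPM in T0, 9.76, 7.83, 9.54 and 9.60 in T3 and 6.68 and 5.93 in T5. The groups did not overlap, T3 was 2.99-fold below T0 (log2 -1.58, SE 0.23, adjusted p = 6.85e-06), and T5 was 4.36-fold below T0 (log2 -2.12, SE 0.30, adjusted p = 7.17e-06). Rbm3 had 25.3, 19.5 and 14.1 CPM in T0, 25.3, 46.8, 34.1 and 37.0 in T3 and 21.7 and 23.4 in T5. Its lowest T3 value stood next to its highest T0 value, T3 over T0 was 1.83-fold (log2 0.87, SE 0.23, adjusted p = 0.00438), and T5 over T0 was not called (log2 0.20, adjusted p = 0.576). Rbm3 was named for its pairing with Cirbp, after its values were seen. Its antisense gene Rbm3os had 1.96, 6.10 and 3.46 CPM on average.

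**Figure D3:**
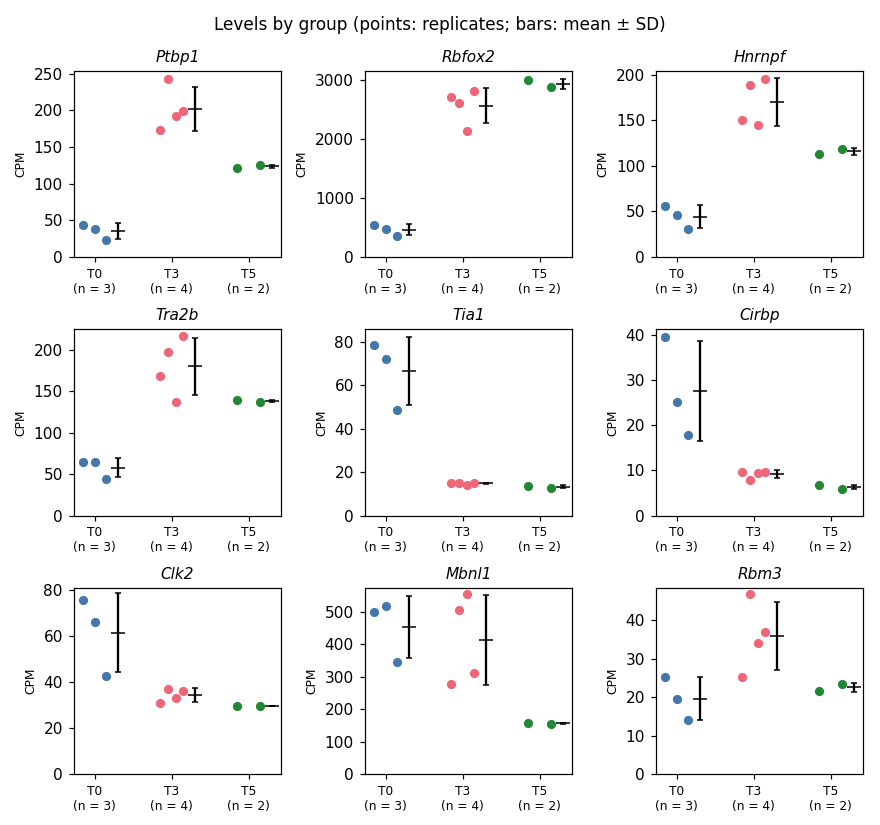
CPM of 9 genes in each replicate of T0 (n = 3), T3 (n = 4) and T5 (n = 2), with the mean and SD beside the points. Ptbp1, Hnrnpf and Tra2b are higher in T3 and T5 than in T0 and had no call between T3 and T5, Rbfox2 stays high in T5 (2870 and 2993 CPM), Tia1, Cirbp and Clk2 are low in both isolated groups, and Mbnl1 is low in T5.

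The muscleblind genes encode binders of intronic and exonic repeat elements that promote mature muscle splicing. Mbnl1 had 500, 517 and 344 CPM in T0, 277, 506, 553 and 312 in T3 and 157 and 155 in T5. T3 replicates split into a pair near T0 and a pair below it, and both T5 values lay below every other sample. T3 over T0 was not called (log2 -0.14, adjusted p = 0.713), and its sign turned under upper quartile scaling. T5 was 2.64-fold below T3 (log2 -1.40, SE 0.30, adjusted p = 0.011) and 2.91-fold below T0 (log2 -1.54, SE 0.31, adjusted p = 0.000415). The call of T5 against T3 was lost when T5 was left with 1 replicate (adjusted p = 0.177 without A and 0.212 without B). Gm37589 and Gm37488, same-strand genes within the span of Mbnl1 but outside its exons, went from 17.3 and 6.10 CPM in T3 to 5.11 and 2.18 in T5. Mbnl2 had 1419, 1392 and 801 CPM in T0, 683, 835, 832 and 881 in T3 and 719 and 770 in T5. T0 replicate 3 lay inside the T3 range, and T3 over T0 missed the threshold (log2 -0.58, SE 0.23, adjusted p = 0.051) but passed without that replicate (log2 -0.80, adjusted p = 0.000792). Celf1, an antagonist of the muscleblind proteins, had a log2 fold change of 0.58 (adjusted p = 0.0358), a call lost under 8 of 16 alternative settings. Of the 16 myofibre markers, 12 were called higher and 2 lower in T3 against T0, and 6 were called lower in T5 against T3. Their part in the values of Mbnl1, Mbnl2, Celf1 and Rbfox2 was not tested.

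The added 2 h brought few calls among the splicing regulators. Comparing T5 with T3 asks how transcripts differ after the added 2 h. The sources disagree on whether this time came before or after the isolation. T5 is therefore not necessarily a later stage of cells isolated like those of T3. None of the 39 genes was called higher and 1, Mbnl1, was called lower (edgeR). Of all genes, 1.28% were called higher and 0.888% lower, and of genes at the members' level 1.57% and 1.72%. At an unadjusted p under 0.05 the members gave 0 higher and 9 lower, and DESeq2 gave 0 higher and 1 lower. The number of members called lower ranged from 0 to 7 over the alternative settings. Estimates leaned downward: 36 of 39 were below 0, with a median log2 fold change of -0.39, and 69.0% of the genes at the members' level were below 0, with a median of -0.19. Both T5 replicates lay below all T3 replicates for 26 genes and above for 2, Hnrnpa3 and Rbfox2. All genes gave 18.9% below and 19.3% above, and genes at the members' level gave 40% below. With the 4 T5 libraries taken singly, 21 genes lay below all T3 replicates and 1, Hnrnpa3, above, against 12% and 8.12% of all genes, and Srsf5, Srsf10, Clk2, Hnrnpm, Tia1 and Rbfox2 then overlapped T3. After Mbnl1, the lowest estimates were those of Srsf2 and Ptbp1 (log2 -0.71 for both, adjusted p = 0.188 and 0.207), Rbm3 (-0.67, adjusted p = 0.261) and Srsf6 (-0.59, adjusted p = 0.299). Srsf2 overlaps Mettl23 on the other strand, whose mean levels of 64.8, 120 and 73.1 CPM in T0, T3 and T5 lay near those of Srsf2 (57.3, 108 and 65.7). The highest estimates were Hnrnpa3 (0.45), Rbfox2 (0.19) and Srpk2 (0.05), and the sign of Srpk2 turned under other scalings.

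Some members also differed between T5 and T0. With 2 T5 replicates against 4 of T3, fewer calls than in T3 against T0 do not show a return towards T0. Comparing T5 with T0 gave 12 members higher and 4 lower, with a median log2 fold change of 0.33. All genes gave 13.2% higher and 22.5% lower, and genes at the members' level 20.8% and 30.6%. The split depended on the scaling, with 28 higher and 4 lower under upper quartile factors and 6 higher and 4 lower under relative log expression factors. Without T0 replicate 3 it was 12 higher and 7 lower, with a median of 0.13, and all genes then gave 26.2% higher and 29.4% lower, so the share of members called higher was near that of all genes. With 1 T5 replicate left out it was 6 higher and 4 lower in either case. The 4 lower genes were Tia1, Cirbp, Mbnl1 and Clk2, and all 15 alternative settings called them. Tra2b, Hnrnpa3, Hnrnpc, Hnrnpf, Ptbp1 and Rbfox2 were called higher under all 15 too. Their log2 fold changes of T5 over T0 were 1.26 (Tra2b), 1.50 (Hnrnpa3), 1.13 (Hnrnpc), 1.38 (Hnrnpf), 1.80 (Ptbp1) and 2.66 (Rbfox2). The remaining 6 calls were Srsf11 (0.94), Srsf10 (0.85), Srpk1 (0.80), Hnrnpu (0.74), Srsf7 (0.73) and Hnrnph1 (0.64, adjusted p = 0.0474). The comparison shares its T0 and T5 samples with the other comparisons, so the 3 sets of values are not independent.

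**Figure D4:**
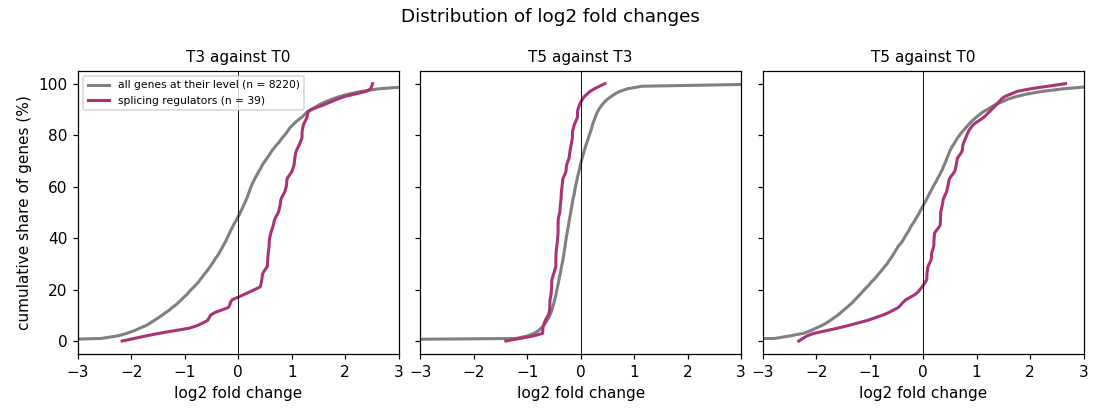
Cumulative distribution of log2 fold changes for the 39 splicing regulators and for the 8220 genes at their level, in each comparison. The members' curve is shifted to higher values in T3 against T0 (median 0.75 against 0.04) and slightly to lower values in T5 against T3 (-0.39 against -0.19).

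Genes around these regulators in the splicing pathway were read from 3 further lists. Their counts stand against 15% of all genes called higher and 22.9% lower in T3 against T0, and 28.7% and 28.5% of genes at the level of the 39 regulators. Of 45 core spliceosome genes, 18 were called higher in T3 against T0 and 4 lower, with a median log2 fold change of 0.45. The highest were Snrpd1 (1.78) and Snrpf (1.50), which encode proteins of the Sm ring, and the lowest were Sf3b5 (-1.07), of the SF3b complex, and Prpf19 (-0.85), a ubiquitin ligase that activates the spliceosome. Of 49 further splicing regulators, 20 were called higher and 5 lower (median 0.39). Hnrnpab rose from a mean of 84.2 to 324 CPM (log2 1.94, adjusted p = 7.77e-07), and the SR-like gene Srsf12 from 1.53 to 5.44 CPM (log2 1.82). Celf2, a muscle and neuron regulator related to Celf1, fell from 896 to 456 CPM (log2 -0.97, adjusted p = 0.000539). Of 14 nonsense-mediated decay genes, 5 were called higher and 1 lower (median 0.43), a share near that of genes at the regulators' level. Smg1, the kinase of the pathway, had a log2 fold change of 1.45 and its substrate Upf1 one of 1.31, and Upf3b, an exon junction link, one of -1.19. In T5 against T3, the 1 call among these 108 genes was Rbm24, a muscle splicing activator (log2 0.87, adjusted p = 0.0353). Rbm24 had 11.7, 10.5 and 11.1 CPM in T0, 7.14, 5.25, 5.23 and 5.43 in T3 and 11.4 and 9.69 in T5, so that T3 lay below both other groups.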

How the data were processed

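Total RNA of fixed cells was extracted with a kit for fixed tissue and made into directional libraries that were read as 65-bp single ends, per the labels' protocols. The authors deposited raw counts of reads per gene for 48709 genes in 11 libraries. GRCm38 as the build, and STAR (version 2.5.0a) together with featureCounts (version 1.4.6-p3), are listed in the submitters' processing notes, next to DESeq2 1.12.3 in R 3.3.1; the annotation and strand setting are not given in the sources used here. Counts hold intronic reads and reads of both strands: Tsix had 1.004 to 1.014 times the count of Xist. Genes overlapping another are therefore uncertain, which touches the exons of 18 of the 39 members and the spans of 22. In 11 members, over 10% of the 50-base stretches of their transcripts also occur in another gene.

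Identifiers were matched to GENCODE vM21 (48349 matched, 360 not). Column names gave the group, while their numbers could not be tied to single samples. Groups were compared in 1 fit with edgeR 4.0.16 in R 4.3.3 (TMM scaling, filterByExpr, quasi-likelihood F tests, two-sided, Benjamini-Hochberg over 31999 genes, called at 0.05); standard errors were taken from the F statistic. CPM use TMM library sizes. DESeq2 1.42.0 was an alternative. The procedure was tested on simulated data. Members and gene lists were chosen with earlier results of these data known. Each replicate is printed for members called with a log2 fold change of at least 1 either way in any comparison and for the member with the highest T0 level per kb of exon in each role; of the further lists, up to 2 called genes at each end. Of the lists of markers, 10 genes each for fibro-adipogenic cells and macrophages, 8 for pericytes, 7 for Schwann cells and 6 for erythroid cells were also summed: these sums were 574 to 878, 336 to 507 and 510 to 525 CPM in T0, T3 and T5 for fibro-adipogenic markers, 23.0 to 48.5, 34.4 to 53.3 and 37.7 to 41.5 for macrophage, 150 to 248, 130 to 218 and 137 to 145 for pericyte, 97.5 to 128, 64.0 to 83.7 and 55.9 to 56.4 for Schwann cell and 34.5 to 36.1, 10.5 to 27.0 and 24.5 to 36.9 for erythroid markers. Sequences of promoters are RefSeq's. Protein sequences were not used here.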

Additional observations from a re-analysis of the deposited data

Results flagged for a closer look

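In 3 genes 1 of the 4 T3 replicates lay far from the rest, by Dixon's criterion at 95%, which chance meets in about 1 of 20 groups. Cirbp had 7.83 CPM in T3 replicate 2, against 9.54 to 9.76 in the other 3. Srpk2 had 64.5 CPM in T3 replicate 1, against 73.5 to 74.8. Rbm24, one of the further splicing regulators, had 7.14 CPM in T3 replicate 1, against 5.23 to 5.43. The T0 and T5 groups, with 3 and 2 replicates, could not be examined in this way.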

How the results depend on the processing

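No named member changed direction while called under any alternative. For the 22 named members, 339 of 352 values kept their side of the threshold in T3 against T0, 319 of 330 in T5 against T3 and 289 of 330 in T5 against T0. In T3 against T0, 20 of the 27 members called higher and 3 of the 4 called lower (Clk2, Tia1 and Cirbp) were called under all 16 alternatives. Members called higher numbered 21 with relative log expression factors, 32 with upper quartile factors (which moved the all-gene median on the log2 scale from 0.05 to 0.32, that of the members reaching 1.07) and 25 with DESeq2, and leaving out 1 replicate gave 20 to 28 higher and 3 to 5 lower. Among the 21 members with no exon overlap, 14 were higher and 2 lower, a smaller set by construction. In T5 against T3, the members called lower were 2 with upper quartile factors, 4 with the T5 libraries kept apart, and 7 with only the 2 groups in the fit, which also called 1 higher (Hnrnpa3). Leaving out 1 replicate gave 0 to 6 lower, with 6 without T0 replicate 3 and 0 without T5 replicate A or B, where the lone T5 sample is assumed to vary like the other groups. In T5 against T0, members called higher were 6 with relative log expression factors, 28 with upper quartile factors and 19 with only the 2 groups in the fit. Leaving out 1 replicate gave 6 to 14 higher and 4 to 7 lower. The cause of these shifts was not tested. The fit with a replicate block by column number, over T0 and T3 only, called 22 members higher and 3 lower. Deviations of T0 and T3 samples with the same number correlated at -0.17, 0.21 and 0.22. Samples with unlike numbers were not compared in this way, so these values cannot tell whether the numbers pair them. Depth limits the members little, since the lowest had 5.93 CPM in a T5 replicate.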
